A study of Arabidopsis thaliana with 6 samples.

Results

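Cytochromes P450 are haem-containing monooxygenases, and in plants they form one of the largest enzyme families. Most sit in the endoplasmic reticulum membrane and take electrons from an NADPH-dependent reductase. As a family they oxidise hormones, sterols, fatty acids, terpenoids and defence compounds. Of 22746 probe sets on the array, 22 belonged to single Arabidopsis thaliana genes with a P450 symbol, that is CYP followed by a family number, subfamily letters and a gene number, and each stood for a different gene. A gene table of the species held 225 genes with such symbols, so the account covers a minority of the family. Of the 22 genes, 18 were CYP71B genes, out of 35 in that table, and the other 4 were CYP78A9, CYP79A2, CYP84A4 and CYP51G2. CYP71B is a plant-specific subfamily whose genes often lie side by side in tandem runs, and for most of its enzymes no substrate is named here. The best known member, CYP71B15 (PAD3), makes the antimicrobial compound camalexin and was not analysed here.

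RNA came from whole plants aged 2 weeks, about 20 plants being collected, of the ceh1 mutant (3 arrays) and of its parent line, labelled wild type (3 arrays). Each array was a biological replicate per the labels, and all plants grew under short days on Murashige and Skoog medium. As background, ceh1 carries a lesion in the gene for HDS, which acts in the plastid route to isoprenoid precursors, and the comparison asks how transcript levels in the mutant differ from those in its parent. No other treatment or allele is named in the labels, and the ceh1 line is a single mutant line.

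The array level, taken as the mean intensity after trimming 2% at each end, was 130.0 to 175.7 in ceh1 and 109.8 to 171.4 in the parent, and values were therefore quantile normalised. Signals are given as log2(intensity + 2), and a signal can be compared between arrays but not between probe sets. The annotation used gave no gene for 8730 probe sets and several genes for 503, so a gene not matched here may still have a probe set on the array. Of 6 green-tissue markers 2 were matched, and both were bright. RCA, the Rubisco activase gene, lay between 12.49 and 12.96 on all arrays. PRK, the phosphoribulokinase gene, had 12.10, 11.89 and 12.11 in ceh1, against 12.42, 12.48 and 12.30 in the parent, with no overlap, and its log2 fold change of −0.37 did not pass (limma, adjusted p = 0.167). Of 6 root markers 3 were matched. PYK10, a beta-glucosidase gene, was bright, between 8.62 and 10.62 on all arrays. EXPA7 and EXPA18, expansin genes of root hairs, were dim, at no more than 3.95 and 3.81 on any array. The tapetum marker A9 did not exceed 2.49 on any array.

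CYP71B23 (AT3G26210) was the only gene to pass (limma, adjusted p under 0.05) among the 14 P450 genes bright enough to be tested. Its transcript was higher in ceh1. Its deposited intensities were 94.4, 264.5 and 166.8 in ceh1 replicates 1, 2 and 3, against 5.96, 11.5 and 2.56 in parent replicates 1, 2 and 3. On the normalised scale it had log2 signals of 6.74, 7.76 and 7.14 in ceh1, against 3.06, 3.82 and 2.40 in the parent. All 3 mutant arrays lay far above all 3 parent arrays, with no overlap. The mean was 7.22 ± 0.52 in ceh1 and 3.09 ± 0.71 in the parent (SD, n = 3 each), a log2 fold change of 4.12 ± 0.42 (SE), or 17.4-fold on this scale (limma, adjusted p = 0.00359). In RNA from whole plants, more cells with the transcript and more transcript per cell cannot be told apart.

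**Figure D1:**
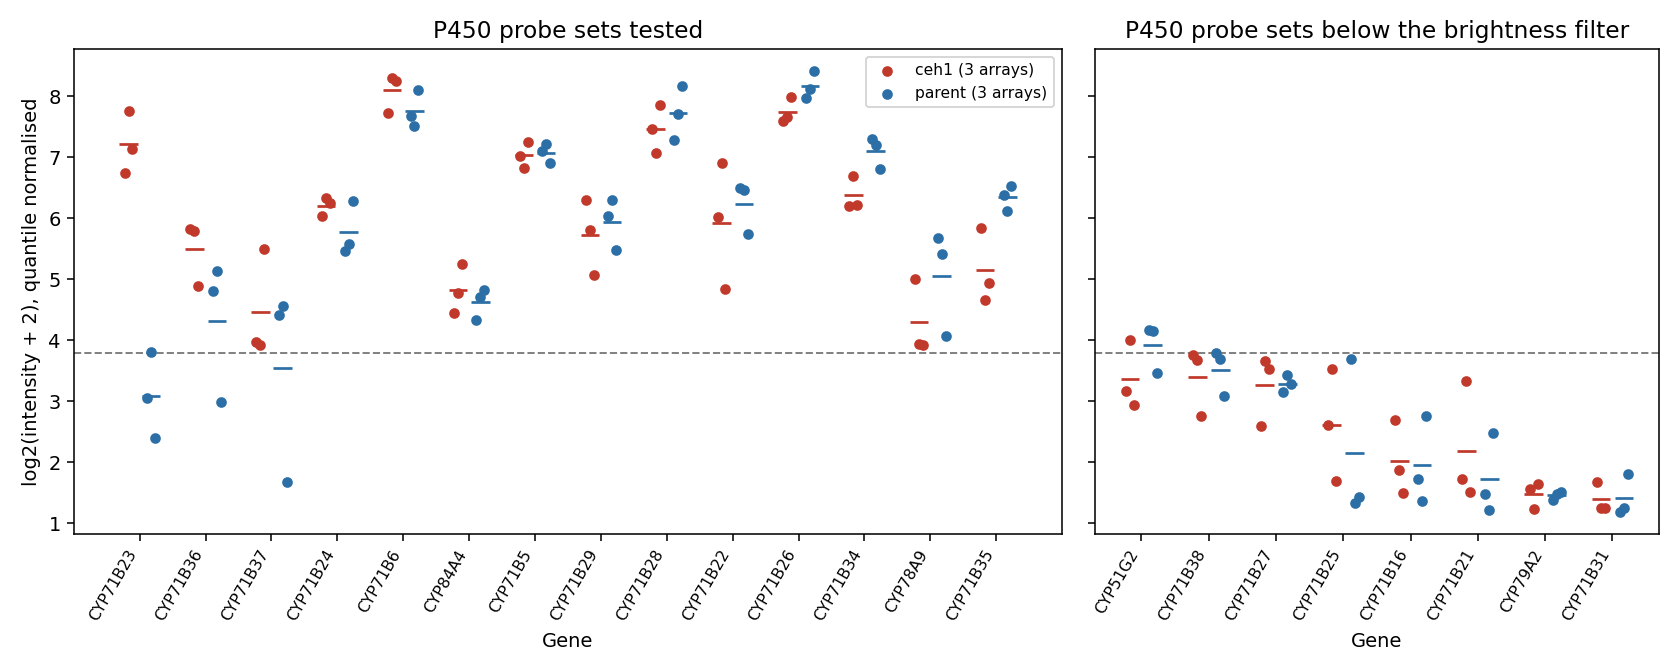
Log2(intensity + 2), quantile normalised, of the 22 P450 probe sets on each array, with ceh1 (red) left of the parent (blue), points for the 3 arrays and bars for the group mean; the dashed line is the brightness filter at 3.80. CYP71B23 at the far left has ceh1 arrays between 6.74 and 7.76 and parent arrays between 2.40 and 3.82, whereas the groups of most other genes lie over each other.

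The parent signals of CYP71B23 were close to or below the filter for dim probe sets, a mean log2 signal of 3.80, so that the gene was tested because of its level in ceh1. The size of its rise therefore depends on the added constant and was 4.31 with a pseudocount of 1 and 3.39 with a pseudocount of 8 (log2 fold changes). The gene passed the test whichever array was left out, with log2 fold changes from 3.80 without ceh1 replicate 2 to 4.51 without parent replicate 2. The highest adjusted p among these was 0.0246, without ceh1 replicate 3 (limma). With a filter at the 50th percentile CYP71B23 was too dim overall to be tested.

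Measures of other kinds were taken on the same arrays. The 25S ribosomal RNA control had intensities of 1132 to 4598 in ceh1, against 293.7 to 985.4 in the parent. An exact permutation test (two-sided) gave p = 0.1, which is the lowest value that 3 against 3 arrays can give. The ratio of the 3' to the 5' actin control overlapped, at 2.31 to 2.79 in ceh1 against 2.52 to 2.61 in the parent (exact permutation test, p = 0.7). The array level overlapped too (exact permutation test, p = 0.5). PYK10, a beta-glucosidase gene of roots, had log2 signals of 10.46, 10.62 and 10.50 in ceh1, against 9.49, 9.83 and 8.62 in the parent, and did not pass (limma, adjusted p = 0.0733). The 25S control separated the genotypes with no overlap, but on deposited intensities that were not normalised between arrays. Its nearest arrays were parent replicate 2 at 985.4 and ceh1 replicate 3 at 1132, whose array levels were 135.4 and 172.9. On normalised signals PYK10 separated the genotypes with no overlap, as CYP71B23 and the green-tissue marker PRK did. Of all tested probe sets, 27.5% behaved in this way. The dim root markers EXPA7 and EXPA18 leaned the other way from PYK10, with overlapping groups. Their means were 2.32 and 2.21 in ceh1, against 3.07 and 2.59 in the parent. The part of these measures in the rise of CYP71B23 was not tested.

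**Figure D2:**
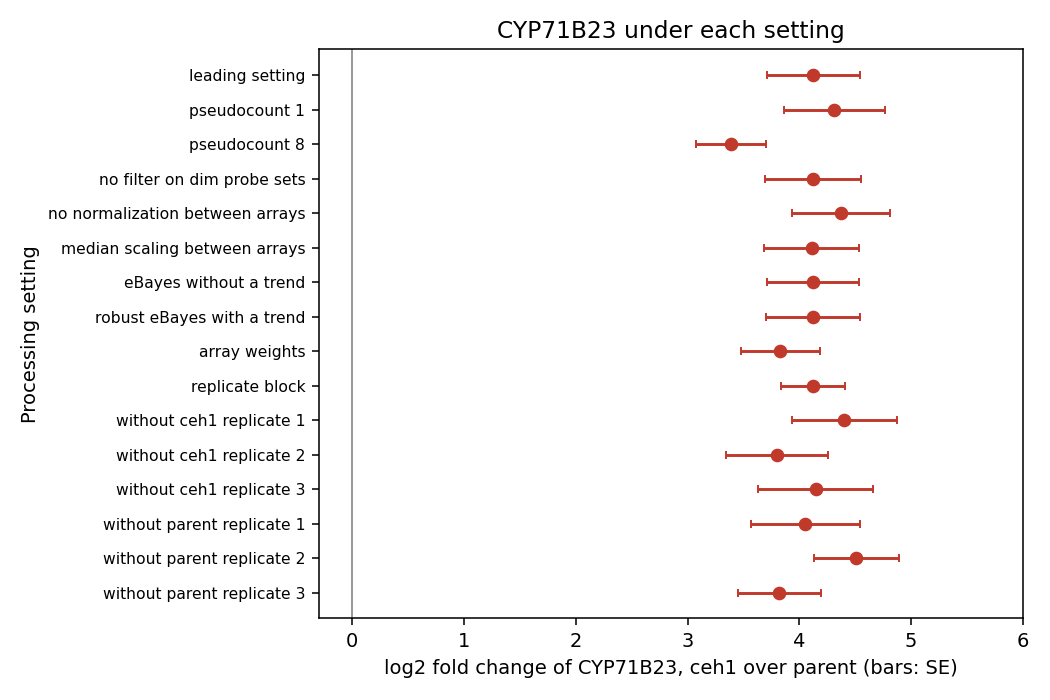
Log2 fold change of CYP71B23, ceh1 over parent, under the leading setting and 15 alternatives, with bars for the SE of the fit. Values run from 3.39 with a pseudocount of 8 to 4.51 without parent replicate 2.

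Of the 22 probe sets, 14 were bright enough to be tested, and 1 of these 14 was higher in ceh1 at an adjusted p under 0.05 (limma), against a background of 2.62% of all tested probe sets. None was lower (0 of 14, limma), against a background of 1.15%, and 2 of 14, CYP71B34 and CYP71B35, were lower at an unadjusted p under 0.05, against 11.5% of all tested. Replicates did not overlap between genotypes in 3 of 14, or 21.4%, namely CYP71B23, CYP71B34 and CYP71B35, where 27.5% of all tested probe sets behaved in this way. The median log2 fold change was −0.13 over the 14 and −0.03 over all probe sets tested. Of the 14, 6 were above 0, or 42.9%, against 46.7% of all tested. Among these 6 were CYP71B23 and CYP71B37, whose parent means lay below the brightness filter. Without normalization between arrays, which moves the median of all probe sets to 0.21, the median of the 14 was 0.13. Apart from CYP71B23, the 13 tested genes had log2 fold changes from −1.20 to 1.18.

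**Figure D3:**
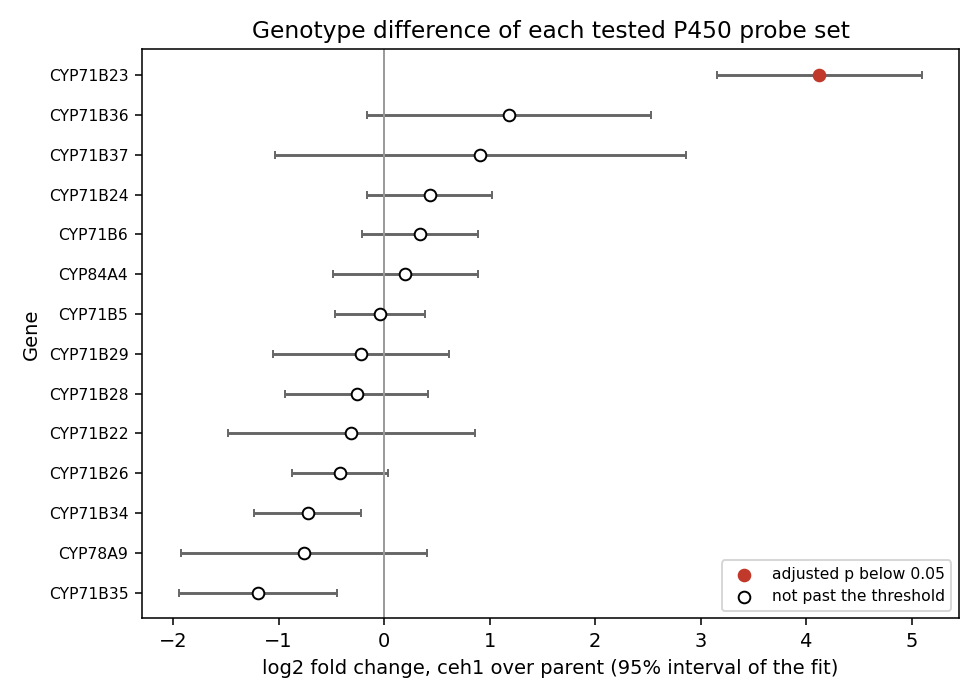
Log2 fold change, ceh1 over parent, of the 14 tested P450 probe sets, with the 95% interval of the fit for each gene. CYP71B23, at 4.12, is the filled point, and the other 13, between −1.20 and 1.18, are open because they did not pass the threshold.

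By position in the gene table, 11 of the 22 genes lie in a single run on chromosome 3. From CYP71B16 (AT3G26150) to CYP71B37 (AT3G26330) this run spans 22 genes, 18 of them CYP71B genes, and 8 of the 11 analysed here were bright enough for the test. CYP71B23 lies in its first part, directly after CYP71B22 (AT3G26200) and 1 gene before CYP71B24 (AT3G26230), with CYP71B3 in between. CYP71B22 had log2 signals of 6.02, 6.91 and 4.84 in ceh1, against 6.50, 6.46 and 5.75 in the parent. Its ceh1 arrays held both the highest and the lowest of the 6 values, and its log2 fold change of −0.31 did not pass, with a 95% interval from −1.48 to 0.86 (limma, adjusted p = 0.776). CYP71B24 had 6.04, 6.33 and 6.25 in ceh1, against 5.47, 5.58 and 6.29 in the parent, where replicate 3 lay within the ceh1 range. Its log2 fold change was 0.43 (limma, adjusted p = 0.385). On the other side of CYP71B22, CYP71B21 (AT3G26190) was dim, at 1.73, 3.34 and 1.52 in ceh1, against 1.48, 1.22 and 2.48 in the parent, and was not tested.

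The difference between neighbours was also taken within each array. For CYP71B23 its size depends on the added constant, since the parent signals of that gene were near the floor. CYP71B23 minus CYP71B22 was 0.71, 0.85 and 2.30 on the log2 scale in ceh1, against −3.44, −2.64 and −3.35 in the parent. The groups did not overlap and differed by 4.43 (exact two-sided permutation test, p = 0.1, adjusted over 7 neighbour pairs 0.233). CYP71B24 minus CYP71B23 was −0.70, −1.43 and −0.89 in ceh1, against 2.41, 1.76 and 3.89 in the parent, and differed by −3.69 (exact two-sided permutation test, p = 0.1, adjusted 0.233). The spread between replicates was at most 1.09 (SD) in both pairs. Both pairs hold CYP71B23, which was tested because of its level in ceh1, so these differences restate its rise and are no separate support. With 3 against 3 arrays the exact test cannot give a p below 0.1, so no pair could pass.

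**Figure D4:**
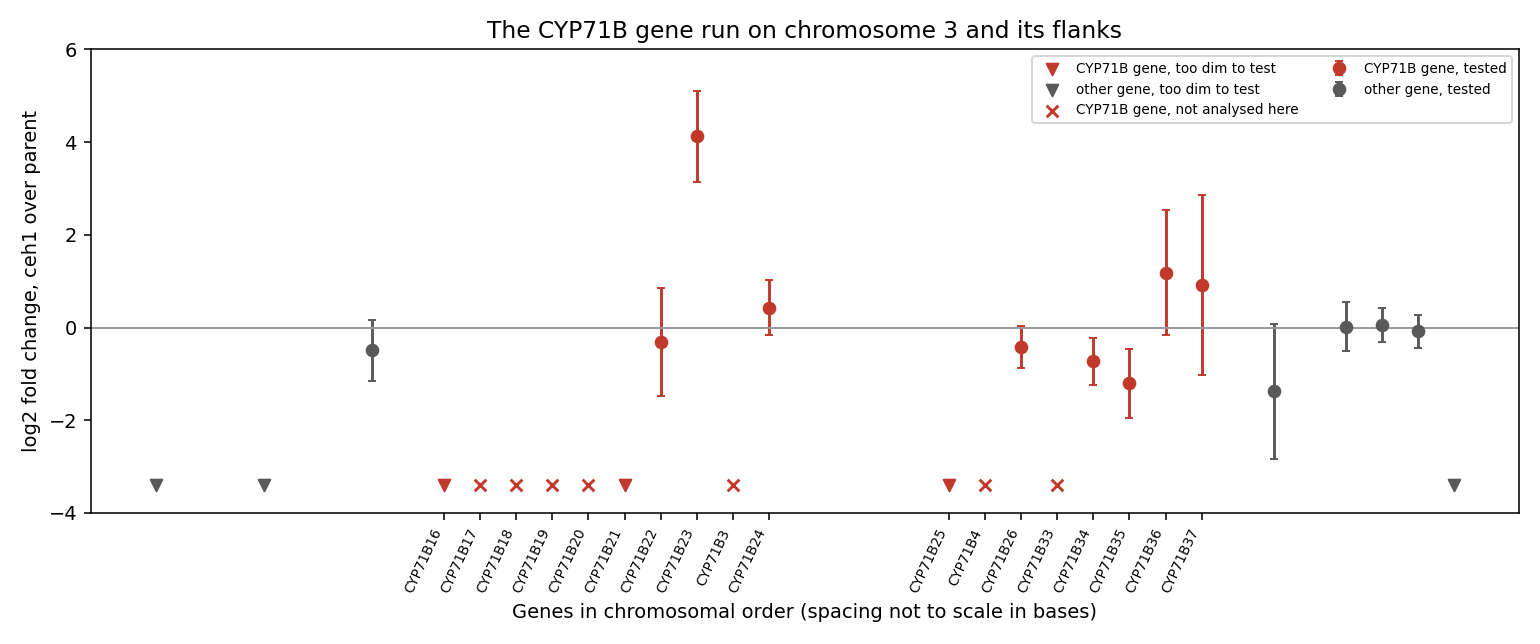
Log2 fold change, ceh1 over parent, with the 95% interval of the fit, of genes in chromosomal order along the CYP71B run on chromosome 3 and 8 genes on each side; triangles and crosses at the bottom mark genes too dim to test and CYP71B genes not analysed here. CYP71B23 stands at 4.12, while its tested neighbours CYP71B22 and CYP71B24 are at −0.31 and 0.43.

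The far end of the run held genes with values on both sides of 0. CYP71B34 (AT3G26300) had log2 signals of 6.21, 6.70 and 6.23 in ceh1, against 7.30, 7.21 and 6.81 in the parent. All ceh1 arrays were below all parent arrays, and the log2 fold change of −0.73 ± 0.22 (SE) did not pass (limma, adjusted p = 0.118). CYP71B35 (AT3G26310), the next gene, had 5.85, 4.67 and 4.94 in ceh1, against 6.39, 6.12 and 6.54 in the parent, again with no overlap. Its log2 fold change was −1.20 ± 0.32 (SE), the most negative of the 14, and did not pass (limma, adjusted p = 0.0910). Without ceh1 replicate 1, the array nearest to the parent, it was −1.56 and passed (limma, adjusted p = 0.0311). Over all alternatives its adjusted p ran from 0.0311 to 0.268.

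CYP71B36 (AT3G26320) and CYP71B37 (AT3G26330) close the run. CYP71B36 had 5.82, 5.79 and 4.89 in ceh1, against 4.81, 5.14 and 2.99 in the parent, so that the groups overlapped between ceh1 replicate 3 and parent replicate 2. Its log2 fold change was 1.18 with a 95% interval from −0.16 to 2.53 (limma, adjusted p = 0.297), and 0.53 without parent replicate 3 (limma, adjusted p = 0.423). CYP71B37 had 3.97, 3.93 and 5.50 in ceh1, against 4.41, 4.57 and 1.68 in the parent. Its parent mean of 3.55 lay below the filter, so that it too was tested because of its level in ceh1, a mean of 4.47. It was too dim to be tested without ceh1 replicate 3. Parent replicate 3 stood far below the other 5 arrays, and without it the log2 fold change of 0.91 became −0.027 (limma, adjusted p = 0.591 with all arrays and 0.984 without that one).

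Within arrays, CYP71B36 minus CYP71B35 was −0.03, 1.12 and −0.06 in ceh1, against −1.58, −0.98 and −3.55 in the parent. The groups did not overlap and differed by 2.38 on the log2 scale (exact two-sided permutation test, p = 0.1, adjusted over the 7 pairs 0.233). The pairs of CYP71B34 with CYP71B35 and of CYP71B36 with CYP71B37 overlapped between genotypes, with differences of −0.47 and −0.27 (exact two-sided permutation p = 0.4 and 0.8), as did that of CYP71B26 with CYP71B34, with a difference of −0.31 (exact p = 0.4). CYP71B26 (AT3G26290), which lies a gene before CYP71B34, with CYP71B33 between them, had 7.59, 7.66 and 8.00 in ceh1, against 7.98, 8.13 and 8.41 in the parent. Its highest ceh1 array just exceeded its lowest parent array, and its log2 fold change was −0.42 (limma, adjusted p = 0.271). Of the 8 genes on each side of the run, 5 in all were tested and 0 passed (limma; 0 at an unadjusted p under 0.05), where 3.77% of all tested probe sets passed in either direction and 20.9% had an unadjusted p under 0.05. These 5 had log2 fold changes from −1.37 for AT3G26350 to 0.05 for AT3G26370. Replicates did not overlap for AT3G26350 and AT3G26140, both lower in ceh1, and overlapped for the rest. Of all tested probe sets, 27.5% did not overlap.

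The 4 tested CYP71B genes elsewhere had log2 fold changes between −0.26 and 0.34, and none passed. On chromosome 1, CYP71B28 (AT1G13090) had 7.46, 7.07 and 7.86 in ceh1, against 7.29, 7.71 and 8.17 in the parent. Its neighbour CYP71B29 (AT1G13100) had 6.31, 5.81 and 5.07 in ceh1, against 6.05, 6.31 and 5.48 in the parent. In both genotypes replicate 3 was the highest array for CYP71B28 and the lowest for CYP71B29. CYP71B29 minus CYP71B28 was accordingly −1.15, −1.26 and −2.79 in ceh1, against −1.24, −1.40 and −2.69 in the parent, a difference of 0.04 between genotypes (exact two-sided permutation test, p = 0.9). The log2 fold changes were −0.26 for CYP71B28 and −0.22 for CYP71B29 (limma, adjusted p = 0.665 and 0.781). The spread between replicates of this pair of genes was thus larger than the difference between genotypes.

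CYP71B5 (AT3G53280) had the narrowest interval of the tested genes. It had 7.02, 6.83 and 7.26 in ceh1, against 7.10, 7.22 and 6.91 in the parent, with a log2 fold change of −0.04 and a 95% interval from −0.47 to 0.39 (limma, adjusted p = 0.929). The interval leaves out a change of 2-fold in either direction, and the sign of the value turned without normalization, where it was 0.21. CYP71B6 (AT2G24180), whose enzyme oxidises indole-3-acetonitrile in tryptophan-derived defence metabolism, had 7.73, 8.30 and 8.26 in ceh1, against 7.67, 7.51 and 8.10 in the parent. The groups overlapped, and its log2 fold change was 0.34 (limma, adjusted p = 0.469).

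Members of other families were dim or did not pass. CYP78A9 (AT3G61880), which promotes growth of the fruit when overexpressed, had 5.01, 3.94 and 3.93 in ceh1, against 5.68, 5.41 and 4.07 in the parent. Its values fell into a higher and a lower level within each genotype, and the log2 fold change of −0.76, with a 95% interval from −1.93 to 0.41, did not pass (limma, adjusted p = 0.439). It was −0.44 without parent replicate 1 and −1.27 without parent replicate 3, and passed in neither case (limma, adjusted p = 0.766 and 0.130). CYP84A4 (AT5G04330), an enzyme of arabidopyrone synthesis that derives from the lignin hydroxylase CYP84A1, had 4.45, 4.77 and 5.26 in ceh1, against 4.34, 4.71 and 4.83 in the parent. The groups overlapped, with a log2 fold change of 0.20 (limma, adjusted p = 0.754).

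In several of these genes the same arrays stood apart within each genotype as for GI, in the same or in the opposite direction. GI is an evening gene of the circadian clock and the 1 gene matched to a probe set from a list of 7 evening genes. GI had 7.66, 8.98 and 8.60 in ceh1, against 7.52, 7.49 and 9.56 in the parent, so that ceh1 replicates 2 and 3 and parent replicate 3 were high. The same 3 arrays were the lowest for CYP78A9 and for CYP71B29 and the highest for CYP71B6 and, narrowly, for CYP71B24, 4 genes singled out after their values were seen. Those arrays also gave the highest signals for CYP84A4, again narrowly, with 4.77 in ceh1 replicate 2 against 4.71 in parent replicate 2. CYP84A4 was left out of the plot of these 4 genes with GI. The other tested P450 genes did not split the arrays in this way. The share of all tested probe sets with this split was not counted. Whether it was more frequent among the P450 genes is therefore not known. Within ceh1 the order of the arrays for CYP71B23 was that of GI, with replicate 2 highest and replicate 1 lowest, whereas within the parent replicate 3, the highest for GI, was the lowest for CYP71B23. The part of the time of harvest in these values was not tested.

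**Figure D5:**
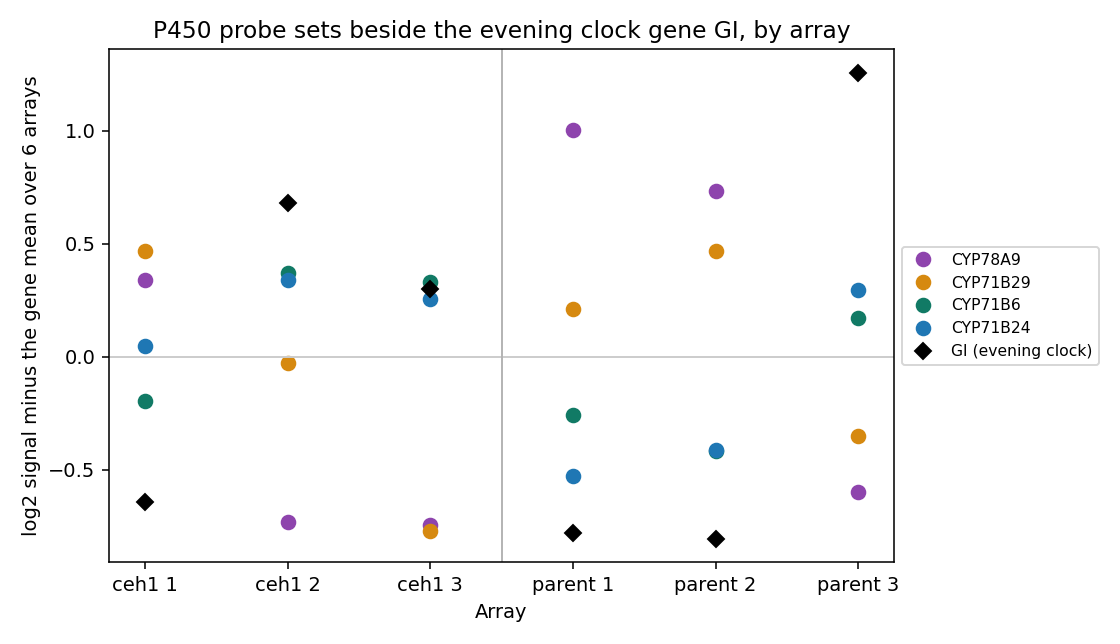
Log2 signal minus each gene's own mean over the 6 arrays, for 4 P450 genes (circles) and the evening clock gene GI (diamonds), with ceh1 arrays left of the line and parent arrays right of it. ceh1 replicates 2 and 3 and parent replicate 3, where GI was 8.98, 8.60 and 9.56, are below the gene mean for CYP78A9 and CYP71B29 and above it for CYP71B6 and CYP71B24. The 4 genes were singled out for this split after their values were seen.

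The 8 P450 genes left untested had log2 signals between 1.19 and 4.17 on single arrays, and the groups overlapped in all 8. The share of overlap over all untested probe sets was not counted, so this count is not read as a result about these genes. The 8 genes were CYP71B16, CYP71B21, CYP71B25, CYP71B27, CYP71B31, CYP71B38, CYP51G2 and CYP79A2. CYP51G2 (AT2G17330), a relative of the sterol demethylase CYP51G1, lay just outside the filter at a mean of 3.65, and CYP71B37 just inside it at 4.01. CYP51G2 had 3.17, 4.01 and 2.93 in ceh1, against 4.17, 4.16 and 3.46 in the parent. CYP79A2 (AT5G05260), which starts the synthesis of benzylglucosinolate from phenylalanine, had 1.56, 1.24 and 1.65 in ceh1, against 1.38, 1.48 and 1.52 in the parent. CYP71B31 (AT3G53300), known to oxidise the flower scent compound linalool, had 1.68, 1.25 and 1.26 in ceh1, against 1.19, 1.25 and 1.81 in the parent. Signals this low say little about whether a transcript differed.

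Few other enzymes of the pathways that P450s serve were matched to a probe set. Of 77 genes listed as partners in the synthesis of hormones, glucosinolates, camalexin, phenylpropanoids, carotenoids, sterols, lipids and terpenoids, or as P450 reductases, 5 were matched and tested, and the other genes were not analysed here. Of the 5, 0 changed (limma), against 3.77% of all tested probe sets, and 3 had an unadjusted p under 0.05, against 20.9%. HCT, which makes the shikimate ester that the P450 CYP98A3 hydroxylates on the way to lignin, had 8.998, 8.70 and 8.87 in ceh1, against 9.96, 9.78 and 9.28 in the parent. The groups did not overlap, and the log2 fold change of −0.82 did not pass (limma, adjusted p = 0.0847). DFR, an enzyme of anthocyanin synthesis, had overlapping groups and a value of 1.44 (limma, adjusted p = 0.237). LYCB, the lycopene cyclase ahead of the carotene hydroxylases, had −0.60 with no overlap (limma, adjusted p = 0.185). UGT74B1 and BCAT4, both of glucosinolate synthesis, had log2 fold changes of −0.13 and 0.10 (limma, adjusted p = 0.849 and 0.876). Of the P450 role lists themselves, those for brassinosteroid, gibberellin, abscisic acid, cytokinin, jasmonate, strigolactone, carotenoid and cutin synthesis had 0 genes among the 22.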

How the data were processed

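The deposited intensities, 1 per probe set and not on a log scale, were made by the authors with MAS5 per the submitters' processing notes. Its version and settings are not stated there. No detection calls were used, so a dim signal was not called present or absent. Precision is limited by the number of arrays. Control probe sets (64) were set aside. Genes were named through the platform annotation and a TAIR10.1 gene table, used for names and gene order alone. Values were transformed as log2(intensity + 2), quantile normalised, and probe sets below the 30th percentile of the mean (log2 3.80) were left out. The test of ceh1 against the parent used lmFit and eBayes with a variance trend (limma 3.58.1, R 4.3.3). It was two-sided, and p-values were adjusted by Benjamini and Hochberg's method over 15922 probe sets. In simulated arrays 90.8% of changes of 4 log2 units and 26.8% of changes of 1 were recovered among 15922 probe sets. There 4.66% of the calls were false. The simulated noise was independent between probe sets, and 200 probe sets were changed per run. Deviations shared by many probe sets were not simulated, so recovery in the real arrays may differ. The members, role lists and named genes (every tested P450 gene, and 5 partner genes) were chosen with earlier results of these data known. No P450 gene had more than 1 single-gene probe set. Pairs of neighbouring genes were chosen after seeing the gene table. Alternatives were other pseudocounts, filters, scalings, variance models, array weights, a replicate block and each array left out.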

Additional observations from a re-analysis of the deposited data

How the results depend on the processing

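CYP71B23 passed in the 15 alternatives in which it was tested, with log2 fold changes from 3.39 to 4.51. The count of P450 genes higher in ceh1 was 0 with the filter at the 50th percentile, which leaves that gene out, and 1 otherwise. The count lower in ceh1 was 2 with array weights (CYP71B34 and CYP71B35, limma, adjusted p = 0.0157 and 0.0445), 1 with the replicate block (CYP71B35, limma, adjusted p = 0.0439), and 0 to 1 with an array left out. The median of the tested P450 genes was 0.13 without normalization between arrays. Signs turned, all far from the threshold, without normalization for CYP71B29 (0.041) and CYP71B5 (0.21) and with array weights for CYP71B28 (0.069). With an array left out the log2 fold change turned sign for 5 genes. It ran from −0.51 to 0.11 for CYP71B29, from −0.80 to 0.23 for CYP71B22 and from −0.013 to 0.39 for CYP84A4. For CYP71B5 it ran from −0.15 to 0.063. For CYP71B37, which was too dim to be tested without ceh1 replicate 3, it ran from −0.027 to 1.43. Over all probe sets 600 changed, 417 higher and 183 lower (69.5% higher), against 1815 with array weights (51.5% higher), 1160 with the replicate block (58.4% higher), 384 with the stricter filter, 718 without normalization (91.5% higher) and 152 to 676 with an array left out (152, 168, 175 and 296 without parent replicates 2 and 1 and ceh1 replicates 3 and 2, in that order). Deviations of same-numbered arrays correlated at 0.27, 0.06 and 0.47 over probe sets for numbers 1, 2 and 3. Arrays of unlike numbers ran from −0.40 (ceh1 3 with parent 2) to 0.34 (ceh1 1 with parent 2). These values do not settle whether the numbers pair the samples. The leading fit took no pairing, and the replicate block was an alternative. The cause of the shifts between settings was not tested. Dim signals limit what can be said of the 8 untested genes.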
